A study of Mus musculus with 188 samples.

Results

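The 9 genes described here are listed as brain endothelial and barrier genes, and they were followed through every treatment of the series: Cldn5, Pecam1, Flt1, Kdr, Tek, Cdh5, Slc2a1, Mfsd2a and Abcb1a. They were chosen by name, as the rows whose Ensembl identifiers carry these symbols. In these slices Mfsd2a ran opposite to the other 8, at r = −0.54 in batch 1 and −0.43 in batches 2 and 3. All 9 were present in every library, among 25655 genes listed for batch 1 and 25528 listed for batches 2 and 3, and all 9 passed the filter on low counts in both.

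The libraries are messenger RNA sequencing of organotypic brain slice cultures (BSCs), coronal sections of 150 µm from saline-perfused brains of young adult C57BL/6J mice of both sexes, kept on membrane inserts. The medium was free of serum from culture day 4, and treatments began on day 7. Slices received human hemoglobin (Hb), heme carried by human albumin (heme-albumin), or the complexes of these toxins with the human scavenger proteins haptoglobin (HbHp) and hemopexin (hemeHpx). The question was how the tissue responds to the toxins of extravasated blood and how far the scavengers change that response.

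In batch 1, 10 libraries each came from untreated slices, from heme-albumin at 12.5, 50, 200 and 400 µM and from hemeHpx at 200 µM, all at 24 h. In batches 2 and 3, untreated slices (10 libraries at 24 h, 9 at 48 h) stood beside Hb at 200 and 400 µM (10 libraries for each dose and time), HbHp at 200 µM (8 and 8), HbHp at 400 µM (4 at 24 h, 5 at 48 h) and Hp alone at 400 µM (12 at 24 h, 11 at 48 h). Library names further split batches 2 and 3 into experiments E1 and E2. Every HbHp library was of batch 3 and experiment E2, whereas 7 of 10 controls at 24 h and 7 of 9 at 48 h were of E1. Of 188 libraries, 167 were assigned to 18 groups and 21 were left out of every comparison because their labels left the treatment or the time open. The hemeHpx libraries carry a treatment tag and names that say hemopexin, whereas their titles say haptoglobin, and the tag was followed. Whether libraries of a group came from separate animals was not stated, so p-values measure the spread between these libraries. Bulk RNA cannot tell fewer endothelial cells apart from less RNA per cell.

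Brain endothelial cells form the blood-brain barrier. They seal their contacts with adherens and tight junctions, suppress transcytosis, pump drugs back into the blood and carry glucose and lipids into the parenchyma. VEGF and angiopoietin receptors on the same cells govern their growth, survival and permeability. Cdh5 (VE-cadherin) and Pecam1 (CD31) are adhesion molecules of endothelial junctions, and Cldn5 is the dominant claudin of the brain tight junction. Kdr (VEGFR2) is the main signalling receptor for VEGF, Flt1 (VEGFR1) binds VEGF tightly and limits its access to Kdr, and Tek (Tie2) is the angiopoietin receptor. Slc2a1 encodes the glucose transporter GLUT1, which astrocytes also express, Mfsd2a a lysolipid transporter that restrains transcytosis, and Abcb1a the efflux pump P-glycoprotein.

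Depth ranged from 11038484 to 44199060 counts per library in batch 1, from 32626873 to 54174784 in batch 2 and from 15587938 to 38839614 in batch 3. Levels are given as CPM, counts scaled to a common library size by TMM. Tek, the scarcest of the 9, had 19 to 88 counts in the untreated libraries of batch 1 and 11 counts in the poorest library of all, so its values carry the most counting error. Abcb1a has a close paralog, Abcb1b, with which it may share reads, and Slc2a1, Abcb1a and Cdh5 overlap other annotated genes. Markers of endothelium were present throughout, the sum of 20 other endothelial identity genes ranging from 156 to 590 CPM. Markers of other cells were present too: 5 choroid plexus genes summed to between 0.322 and 3437 CPM and 8 microglial genes to between 249 and 2727 CPM. In the endothelial genes 5 libraries stood apart, by 2.0-fold or more. Averaged over Cldn5, Pecam1, Flt1, Tek and Cdh5, 3 libraries of E2 at 24 h lay above their group's median, control replicate 8 by 4.30-fold, Hp replicate 10 by 3.23-fold and Hp replicate 12 by 2.09-fold. In batch 1, heme-albumin 400 µM replicate 6 lay 2.12-fold and heme-albumin 200 µM replicate 9 lay 2.0-fold above. Values without these libraries follow beside the main results they touch. No other high library of batch 1 was left out singly, among them heme-albumin 50 µM replicate 5 at 35.5 CPM for Pecam1 and 32.3 for Flt1.

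Per kilobase of the longest transcript, Mfsd2a and Slc2a1 led in untreated slices. In batch 1 the levels were 35.8 CPM per kb for Mfsd2a, 29.7 for Slc2a1, 10.6 for Cldn5, 10.2 for Cdh5 and 6.16 for Pecam1. The receptors were lower, with 3.18 CPM per kb for Kdr, 2.60 for Flt1 and 0.651 for Tek, and Abcb1a, the efflux pump, stood among them at 2.69. Mfsd2a and Slc2a1 differed by less than their SD, Cldn5 and Cdh5 differed by far less than their SD, as did Abcb1a and Flt1. In the 24 h controls of batches 2 and 3, Slc2a1 led at 28.8 CPM per kb, followed by Mfsd2a at 19.6 and Cdh5 at 9.36, and Tek was again last at 0.721.

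When the groups of a batch were ranked by their mean for each gene, neighbours in the order rarely differed beyond their spread. In batch 1, 1 of 45 neighbouring pairs was farther apart than the larger SD of the pair, and it belonged to Mfsd2a. In batches 2 and 3 this held for 1 of 99 pairs, which belonged to Cldn5.

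**Figure D1:**
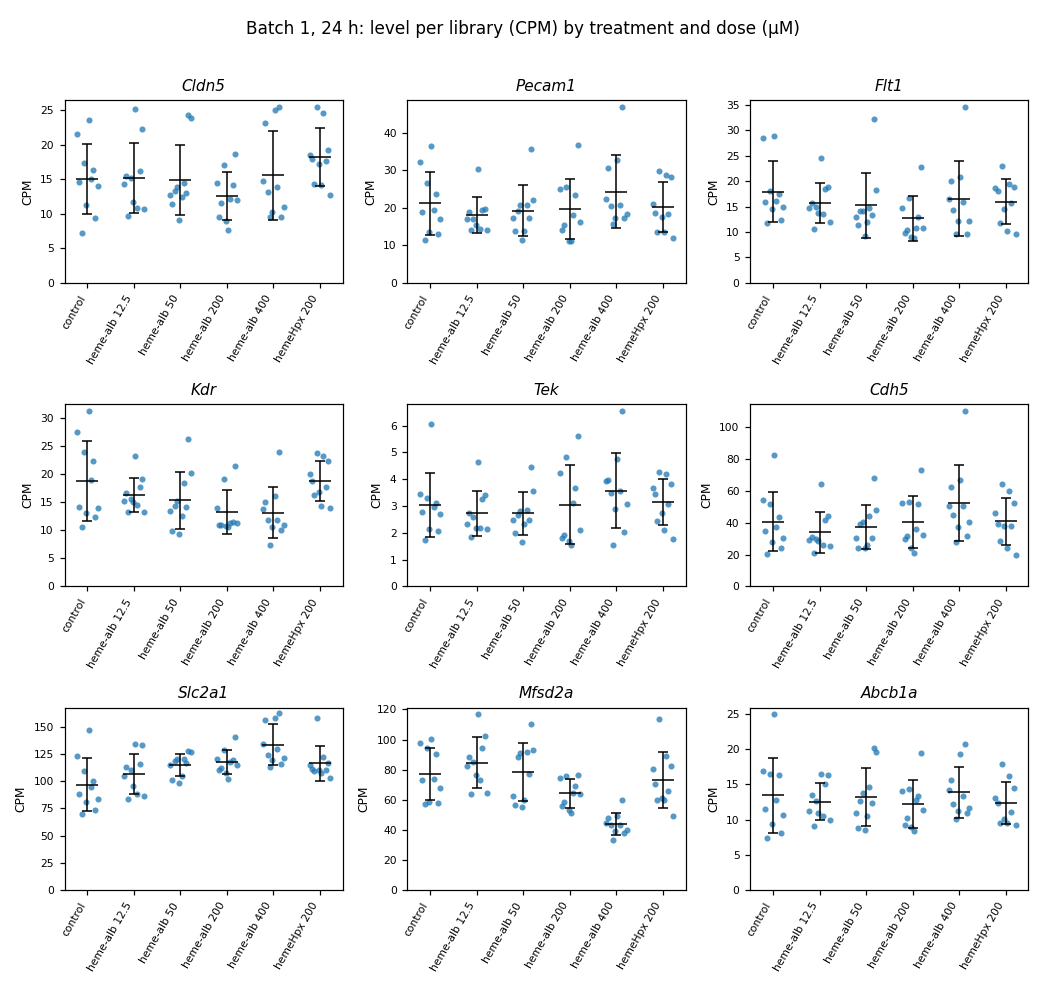
Level of each of the 9 genes in every library of batch 1, in CPM on a linear axis that starts at 0. Points are libraries, the wide line is the mean and the bars are ± SD (n = 10 per group). Mfsd2a at 400 µM heme-albumin lies between 32.9 and 59.7 CPM, 9 of 10 libraries below the lowest control, and Slc2a1 climbs from a mean of 96.8 to 133 CPM.

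The heme-albumin series showed Mfsd2a and Kdr going down with dose and Slc2a1 going up. The 6 other genes, among them the junction genes Cldn5, Pecam1 and Cdh5, showed no call at any dose when all libraries were used. The plot of batch 1 levels by dose shows all 9.

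Mfsd2a ranged from 57.2 to 100 CPM in untreated libraries (median 73.4), from 51 to 76.2 at 200 µM (median 64.1) and from 32.9 to 59.7 at 400 µM (median 43.4). At 400 µM, 9 of 10 libraries lay below the lowest control. Its mean fell from 77.1 ± 17.2 (SD, n = 10) to 43.8 ± 7.41 CPM, a log2 change of −0.82 ± 0.13 (SE, edgeR adjusted p = 2.16e-06). At 200 µM the change was −0.27 ± 0.13 (adjusted p = 0.176), and at 12.5 and 50 µM the estimates were 0.13 and 0.03 with an SE of 0.13 each. Without replicate 6 of the 400 µM group, which stood apart, the change there was −0.79 ± 0.14 (adjusted p = 1.05e-05). The drop at 400 µM was the step that passed, with the lower doses spread over the control range.

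Slc2a1 ranged from 69.5 to 147 CPM in controls (median 91.2), from 102 to 141 at 200 µM (median 116) and from 113 to 163 at 400 µM (median 127). At 400 µM 3 libraries exceeded the highest control, and no library fell below the control median. The log2 change was 0.27 ± 0.10 at 200 µM (edgeR adjusted p = 0.0457) and 0.46 ± 0.10 at 400 µM (adjusted p = 0.000171). The call at 400 µM was kept without replicate 6 of that group (0.43 ± 0.10, adjusted p = 0.000604). The call at 200 µM was lost without replicate 9 of that group (0.25 ± 0.10, adjusted p = 0.0737), with at least 10 counts in every library (adjusted p = 0.0522) and in a fit over the 30 libraries of 3 groups (adjusted p = 0.0681), and was kept in 6 of 9 alternatives. At 50 µM it was 0.24 ± 0.10, which did not pass (adjusted p = 0.311).

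Kdr ranged from 10.6 to 31.3 CPM in controls (median 16.6), from 10.7 to 21.4 at 200 µM (median 11.3) and from 7.40 to 24.0 at 400 µM (median 11.8). The groups overlapped, with 2 libraries at 400 µM below the lowest control and none at 200 µM. Kdr fell by 0.51 ± 0.18 on the log2 scale at 200 µM (edgeR adjusted p = 0.0496) and by 0.51 ± 0.18 at 400 µM (adjusted p = 0.0260). The call at 200 µM lay at the threshold and was lost without a filter on low counts (adjusted p = 0.0742) and over the 30 libraries of 3 groups (adjusted p = 0.0570), and was kept in 6 of 9 alternatives. With the library that stood apart left out of the dose's own group, the changes were −0.60 ± 0.18 at 200 µM (adjusted p = 0.0163) and −0.65 ± 0.17 at 400 µM (adjusted p = 0.00328). Flt1, the decoy receptor for VEGF, stood at −0.50 ± 0.21 at 200 µM (adjusted p = 0.0985) and at −0.11 ± 0.20 at 400 µM. Without replicate 9 of the 200 µM group it passed there, at −0.63 ± 0.20 (edgeR adjusted p = 0.0296). These fits left out high treated libraries only, and every control was kept. Control replicates 13 and 19 read 28.5 and 28.9 CPM for Flt1, against 22.8 for the replicate 9 left out.

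The counts of members called are read against all genes tested in the same fit. Heme-albumin at 12.5 µM called 0 of 9 members against 0.0450% of 15554 genes. At 50 µM it called 0 of 9 against 0.463% of genes. In both comparisons DESeq2 also called 0 members, and at an unadjusted p under 0.05 the counts were 0 and 1. At 200 µM 2 of 9 were called against 13.6% of genes, and at 400 µM 3 of 9 against 29%. A linear trend over the control and the 4 doses, taken as equal steps, called Mfsd2a (−0.20 ± 0.03 per step, edgeR adjusted p = 1.49e-07), Slc2a1 (0.11 ± 0.02, adjusted p = 8.29e-05) and Kdr (−0.13 ± 0.04, adjusted p = 0.00758), 3 of 9 members against 33.9% of genes. Without replicate 6 of the 400 µM group the trend kept its 3 calls, at −0.20 ± 0.03 for Mfsd2a, 0.10 ± 0.02 for Slc2a1 and −0.16 ± 0.04 for Kdr. At 400 µM and in the trend the members' share is near that of all genes. The comparisons with control share the same 10 untreated libraries.

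Markers of other cells moved in the comparison at 400 µM, where 2226 of all 15554 genes were called lower and 2284 higher. At 400 µM, 6 of 8 astrocyte genes were lower, Slc1a2 by 0.80 and Aqp4 by 0.66 on the log2 scale, and the summed level of the 8 ranged from 5768 to 9820 CPM against 8337 to 12417 in controls. Of 8 microglial genes 3 were lower, with sums of 260 to 801 CPM against 393 to 1302. Of the mural genes, 3 of 9 for pericytes and 3 of 5 for smooth muscle were lower, Acta2 by 1.01. None of the defining astrocyte genes was at 0 in any library. The part of these shifts in the values of Kdr, Slc2a1 and Mfsd2a was not tested. The 20 other endothelial identity genes split into 2 higher and 2 lower, with a median log2 change of 0.01, and their sum ranged from 226 to 500 CPM against 206 to 450. The highest sum was that of replicate 6. Without it these genes split into 0 higher and 3 lower, and the genes lower numbered 7 of 8 for microglia, 5 of 9 for pericytes, 6 of 8 for astrocytes and 3 of 5 for smooth muscle. That fit called 4434 of 15574 genes in all, in either direction.

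The 3 genes with most calls across the series are shown with the 250 bases before the RefSeq start site (build GRCm38.p6, 5′ to 3′ on the strand of the gene), so that the letters upstream of each can be read beside its values. The promoter table matched 7 of the 9 genes, without Pecam1 and Cdh5. Capitals mark matches on either strand to GGAAG (the ETS core), ACGTG (a form of the core of the hypoxia response element), TGACNNNGC (the antioxidant response element) and GGGCGG (the GC box). Other forms of these elements, such as GCGTG, were not searched. Slc2a1 lies at chr4:119108495-119108744 on the plus strand, Mfsd2a at chr4:122961189-122961438 on the minus strand and Kdr at chr5:75978456-75978705 on the minus strand.
Slc2a1: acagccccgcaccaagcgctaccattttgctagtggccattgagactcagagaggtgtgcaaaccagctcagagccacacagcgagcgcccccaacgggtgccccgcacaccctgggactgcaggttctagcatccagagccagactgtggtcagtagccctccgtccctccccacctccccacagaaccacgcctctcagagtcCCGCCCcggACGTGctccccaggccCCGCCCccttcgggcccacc
Mfsd2a: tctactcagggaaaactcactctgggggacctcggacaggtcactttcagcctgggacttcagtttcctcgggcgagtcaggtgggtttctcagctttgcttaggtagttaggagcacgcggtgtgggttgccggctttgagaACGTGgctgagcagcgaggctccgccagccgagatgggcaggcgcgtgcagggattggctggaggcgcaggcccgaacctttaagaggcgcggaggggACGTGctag
Kdr: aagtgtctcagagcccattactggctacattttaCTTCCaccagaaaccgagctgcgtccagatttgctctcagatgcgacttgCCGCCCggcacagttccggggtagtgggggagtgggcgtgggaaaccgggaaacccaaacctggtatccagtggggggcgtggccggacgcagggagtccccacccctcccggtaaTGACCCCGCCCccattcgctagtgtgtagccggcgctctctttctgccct

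The Slc2a1 window held ACGTG starting 36 bases before the start site, between GC boxes at 45 and 20. The Mfsd2a window held ACGTG in 2 places, the nearer starting 9 bases before the start site, and none of the other motifs. The Kdr window held GGAAG at 216, TGACNNNGC at 50, which overlaps the GC box at 45, and a further GC box at 166. Among 32851 promoters of the same length, 16.6% held ACGTG, 64.1% GGAAG, 10.2% TGACNNNGC and 32.7% the GC box. These are matches of letters, so their use in the slices was not tested.

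HemeHpx carries heme in a complex from which it is hardly released. At 200 µM it called 0 of 9 members by edgeR and by DESeq2, 1 at an unadjusted p under 0.05, against 8.20% of genes. The largest estimate was for Cldn5, at 0.27 ± 0.20 (95% interval −0.13 to 0.66). Slc2a1 ranged from 102 to 158 CPM (median 111), all libraries lying above the control median. Its change of 0.26 ± 0.10 did not pass (edgeR adjusted p = 0.0661), though it was close to the 0.27 called with heme-albumin at 200 µM. Kdr was at −0.00 ± 0.18 and Mfsd2a at −0.08 ± 0.13, with intervals of −0.35 to 0.35 and −0.33 to 0.18. The count of 0 depends on the fit. With the code in the library names, which recurs across groups, as a block, 1 member was called, and 3706 of all genes against 1276.

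Set against heme-albumin at the same 200 µM, hemeHpx gave higher Kdr and Cldn5. Kdr ranged from 14 to 23.7 CPM with hemeHpx (median 18.2) and from 10.7 to 21.4 with heme-albumin (median 11.3). The groups overlapped, and 3 hemeHpx libraries lay above every heme-albumin library. The difference was 0.50 ± 0.18 on the log2 scale (edgeR adjusted p = 0.0323). Cldn5, at 12.8 to 25.5 against 7.68 to 18.6 CPM, differed by 0.53 ± 0.20 (adjusted p = 0.0455) but failed a correction for GC content and length (adjusted p = 0.0712). Without heme-albumin replicate 9 both differences were 0.58 (adjusted p = 0.0118 for Kdr and 0.0256 for Cldn5). These were 2 of 9 members against 25.9% of genes.

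For Slc2a1 the difference between the carriers was −0.01 ± 0.10, with an interval of −0.20 to 0.17, and Mfsd2a was at 0.19 ± 0.13 with an interval of −0.07 to 0.45. Of the microglial genes 7 of 8 were higher with hemeHpx than with heme-albumin, and of the astrocyte genes 4 of 8, beside 2016 of all 15554 genes. Their summed levels were 416 to 1086 against 267 to 622 CPM for microglia. The part of these cells in the Kdr and Cldn5 values was not tested. Across the 60 libraries of batch 1, after removal of group means, Kdr correlated with the mean of the microglial genes at r = 0.81 and with that of pericyte genes at r = 0.87, libraries that share cell makeup and depth.

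**Figure D2:**
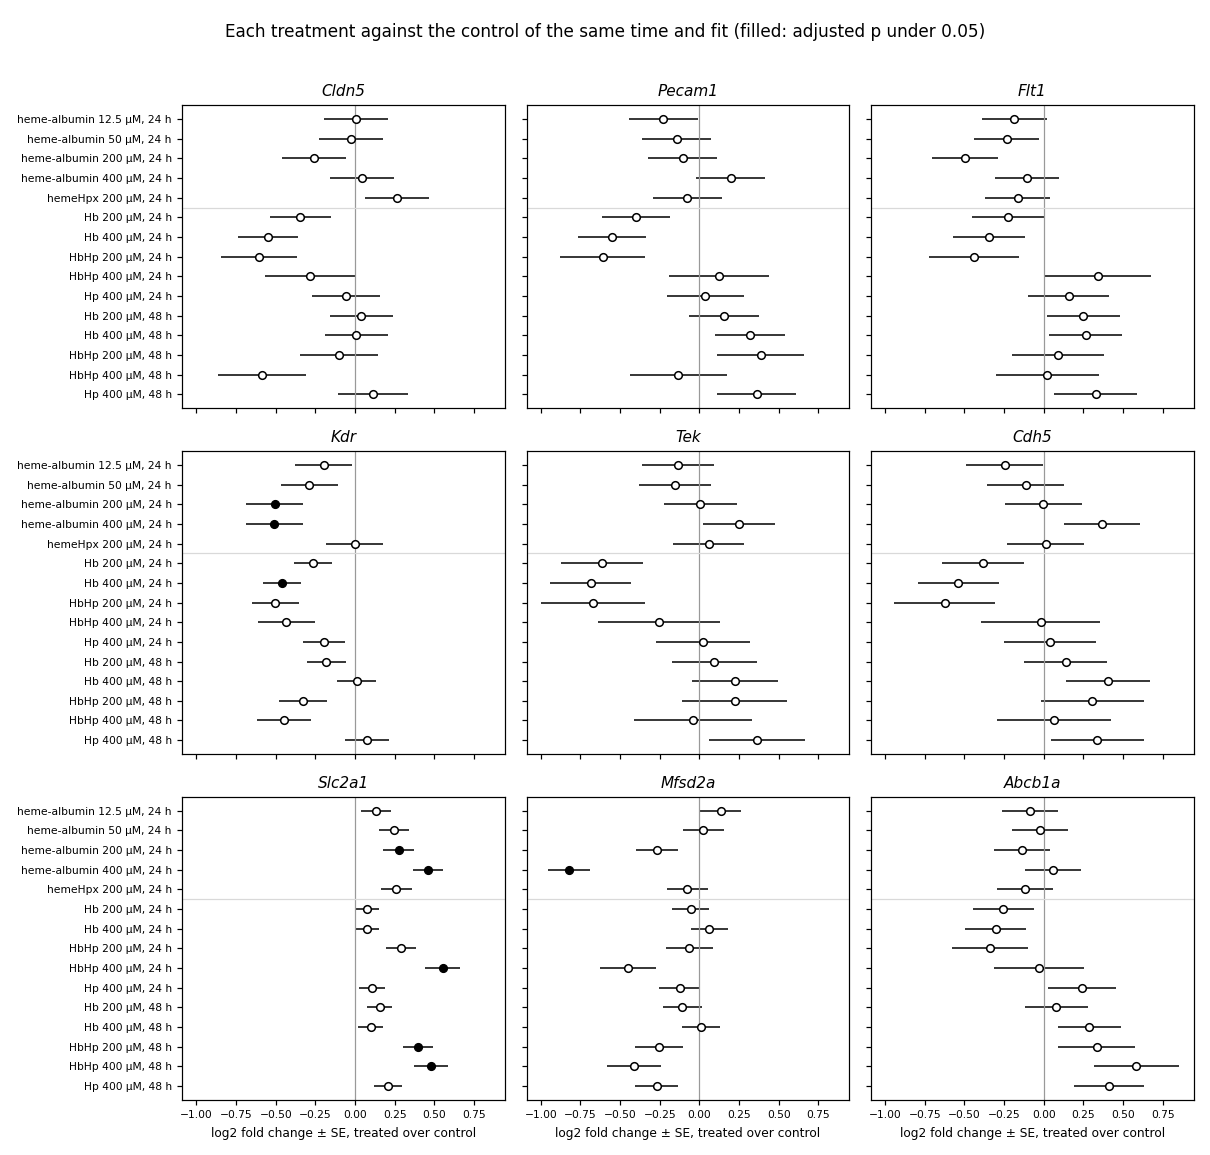
Log2 fold change ± SE of each gene in each treatment against the untreated slices of the same time and fit, with filled points where the edgeR adjusted p was under 0.05. Slc2a1 carries 5 filled points, all to the right of 0, Kdr 3 to the left and Mfsd2a 1 to the left, and no other gene carries any.

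Hb itself changed few of the genes. At 200 µM for 24 h, 0 of 9 members were called against 0.0971% of genes, with 2 at an unadjusted p under 0.05 and 0 by DESeq2. At 400 µM for 24 h, 1 of 9 was called against 0.522%. That gene was Kdr, which ranged from 7.90 to 17.7 CPM (median 12.3) against 10.8 to 26.4 in controls (median 16.5). The groups overlapped over most of their range, and 2 Hb libraries lay below the lowest control. The log2 change was −0.46 ± 0.12 (edgeR adjusted p = 0.0470).

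The call on Kdr was kept in 6 of 14 alternatives, with its direction the same in all 14. In E1 alone the change was −0.35 (adjusted p = 0.849), in E2 alone −0.65 (adjusted p = 0.242), in batch 3 alone −1.10 (adjusted p = 0.0403), and without control replicate 8 it was −0.41 (adjusted p = 0.137). Without control replicate 11 it was −0.45 (adjusted p = 0.0699). The batch 3 fit rested on 1 library of E1 and 1 of E2 with Hb 400 µM, and on 1 control of each. The E1 means were 11.4 ± 2.07 (n = 6) with Hb and 14.6 ± 3.12 CPM (n = 7) without. In E2 they were 14.3 ± 3.57 (n = 4) and 22.4 ± 3.53 CPM (n = 3). Cldn5, Pecam1, Tek and Cdh5 had estimates of −0.54 to −0.69 at this dose, none called, all against a control group that holds replicate 8. Without that library they were −0.24, −0.21, −0.28 and −0.08.

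At 48 h, Hb at 200 µM called 0 of 9 members against 0.310% of genes and Hb at 400 µM 0 of 9 against 0.601%. DESeq2 called 0 in both, and at an unadjusted p under 0.05 the counts were 1 and 0. Estimates at 400 µM ran from 0.01 for Cldn5, Kdr and Mfsd2a to 0.41 ± 0.26 for Cdh5. Of the other barrier genes, Tfrc, the transferrin receptor, was lower with Hb, with log2 changes of −0.54 and −0.65 at 24 h and −0.72 and −0.86 at 48 h for 200 and 400 µM. These comparisons called 0.0971%, 0.522%, 0.310% and 0.601% of all genes. Which cells carried the Tfrc RNA was not measured.

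**Figure D3:**
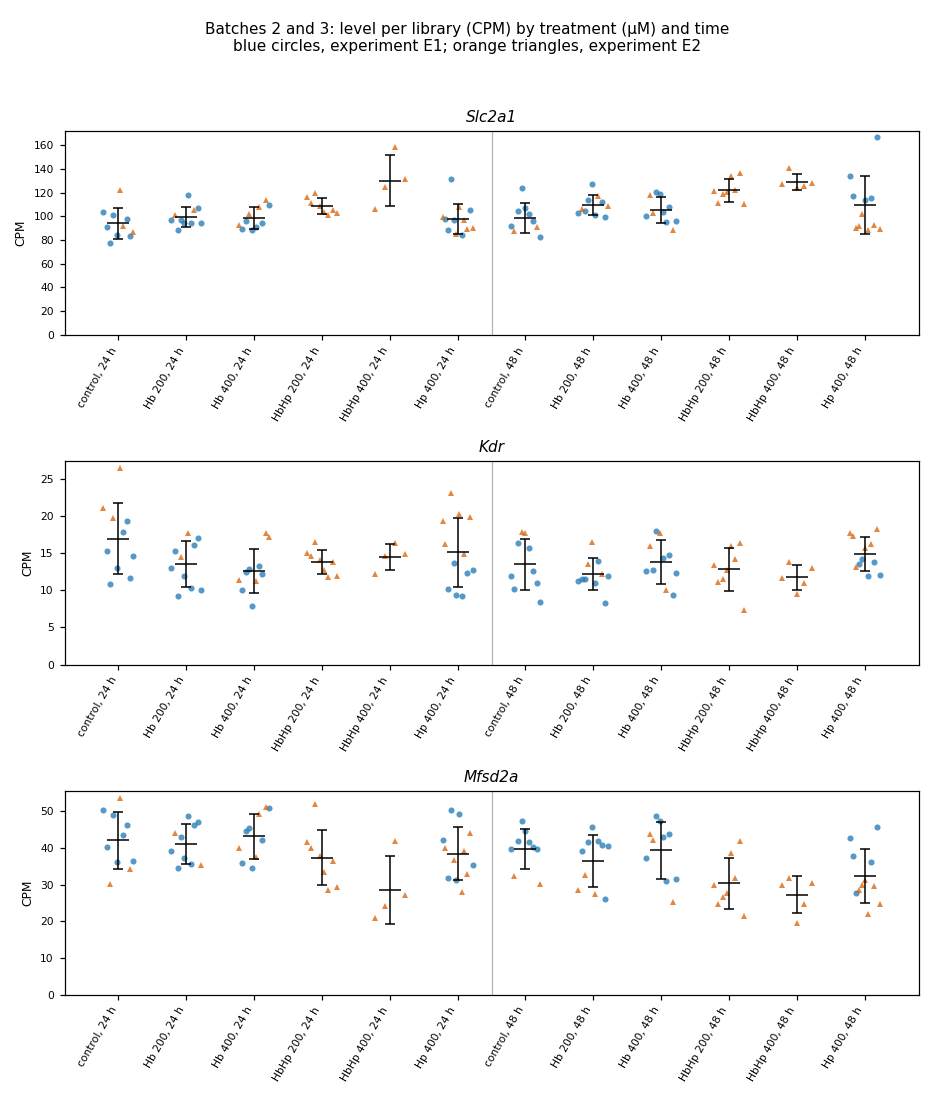
Levels of Slc2a1, Kdr and Mfsd2a in every library of batches 2 and 3, in CPM on linear axes from 0, by treatment and time. Blue circles are experiment E1, orange triangles E2, the wide line is the mean and the bars are ± SD. All HbHp libraries are E2, and the 5 of HbHp 400 µM at 48 h, from 124 to 141 CPM for Slc2a1, lie above every control of that time.

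Against the controls, Slc2a1 was called higher with HbHp at both doses at 48 h and at the higher dose at 24 h. No other member was called. At 24 h the 4 libraries of 400 µM read 106, 125, 132 and 158 CPM. Controls of that time ranged from 77.8 to 122 (median 91.8), so 3 of the 4 lay above all of them. The change was 0.55 ± 0.11 (edgeR adjusted p = 0.000393). Within E2 alone it was 0.43 ± 0.11 (adjusted p = 0.0261), and without control replicate 8, the highest control, it was 0.61 ± 0.11 (adjusted p = 3.26e-05).

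At 48 h the 5 libraries of 400 µM read 124, 125, 128, 128 and 141 CPM, and the controls ranged from 82.3 to 124 (median 96). All 5 lay above every control, the lowest of them narrowly. The change was 0.48 ± 0.11 (edgeR adjusted p = 0.000758), and 0.55 ± 0.12 within E2 alone (adjusted p = 0.00271). HbHp at 200 µM ranged from 110 to 137 CPM at 48 h (median 121), 2 of 8 libraries lying above the highest control, with a change of 0.40 ± 0.10 (adjusted p = 0.00301). Within E2 alone it was 0.47 ± 0.11 (adjusted p = 0.0106) and within batch 3 alone 0.47 ± 0.14 (adjusted p = 0.0518). At 24 h HbHp 200 µM stood at 0.29 ± 0.09 (adjusted p = 0.0884), and it was called when control replicate 8 was left out.

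Read against the background, HbHp 200 µM called 0 of 9 members at 24 h against 1.93% of genes, with 5 at an unadjusted p under 0.05, and DESeq2 called 1, Kdr. HbHp 400 µM called 1 of 9 at 24 h against 5.15%. At 48 h each dose called 1 of 9 against 11.9% of genes. Kdr missed the threshold in all 4 comparisons, with estimates of −0.50 ± 0.15 (adjusted p = 0.0508) and −0.43 ± 0.18 at 24 h and −0.33 ± 0.15 and −0.45 ± 0.17 at 48 h. Within batch 3 alone it passed at 400 µM at both times (−0.74 ± 0.20, adjusted p = 0.0315, and −0.77 ± 0.19, adjusted p = 0.0132) and at 200 µM at 48 h (−0.64 ± 0.18, adjusted p = 0.0439). Batch 3 held 1 control of E1 and 1 of E2 at each time, on which these Kdr calls rest. Pecam1 at 200 µM and 48 h lay above the highest control in 7 of 8 libraries, at 0.39 ± 0.27 (adjusted p = 0.389), beside controls mostly of E1. Mfsd2a at 400 µM was at −0.45 ± 0.18 and −0.41 ± 0.17 (adjusted p = 0.129 and 0.0991).

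Hp alone called none of the members at 24 h. Hp 400 µM ranged from 84.6 to 131 CPM (median 96.7), within the control range but for 1 library, with a change of 0.11 ± 0.08 (adjusted p = 0.703). It called 0 of 9 members against 0.704% of genes, 0 by DESeq2 and 0 at an unadjusted p under 0.05. HbHp 400 µM exceeded Hp 400 µM by 0.44 ± 0.10 (edgeR adjusted p = 0.00678), 1 of 9 members against 0.619% of genes. With 1 HbHp library left out, replicate 1 at 158 CPM, this fell to 0.34 (adjusted p = 0.406), whereas within E2 alone it was 0.46 ± 0.08 (adjusted p = 0.000471).

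At 48 h Hp 400 µM called 0 of 9 members against 10.8% of genes, 1 at an unadjusted p under 0.05 and 0 by DESeq2. That background differed by experiment, with 2596 of 16429 genes called in E1 alone, 5 of 16429 in E2 alone and 0 of 16515 in batch 3 alone, against 1773 of 16473 in all. Its Slc2a1 libraries split by experiment: the 5 of E1 averaged 130 ± 22.5 CPM and ranged from 114 to 167, and the 6 of E2 averaged 92.5 ± 5.08 and ranged from 88.5 to 102. Those ranges did not overlap. Untreated slices averaged 101 ± 13.1 CPM in E1 (n = 7) and 89.3 ± 1.94 in E2 (n = 2). The pooled change was 0.21 ± 0.09 (adjusted p = 0.108). HbHp 400 µM against Hp 400 µM gave 0.27 ± 0.09 for Slc2a1 (adjusted p = 0.110) and −0.53 ± 0.15 for Kdr (adjusted p = 0.0531), 0 of 9 called against 1.44% of genes, with 3 at an unadjusted p under 0.05 and 1 by DESeq2, Kdr. Within E2 alone Slc2a1 was called in this comparison, and within batch 3 alone Slc2a1 and Kdr were.

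HbHp was set against Hb at a matched 200 µM, with batch and experiment as additive terms. All HbHp libraries were of batch 3 and E2. The Hb libraries at 24 h were 6 of batch 2 and E1, 2 of batch 2 and E2, and 2 of batch 3 and E1. At 48 h 1 Hb library was of both batch 3 and E2. At 24 h 0 of 9 members were called against 0.607% of genes, and at 48 h 0 of 9 against 4.98%, DESeq2 calling 0 in both and 1 each standing at an unadjusted p under 0.05. That gene was Slc2a1, at 0.22 ± 0.10 (adjusted p = 0.317) and 0.24 ± 0.09 (adjusted p = 0.120). For the junction genes the intervals were wide: Cldn5 −0.74 to 0.22 at 24 h and −0.61 to 0.33 at 48 h.

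**Figure D4:**
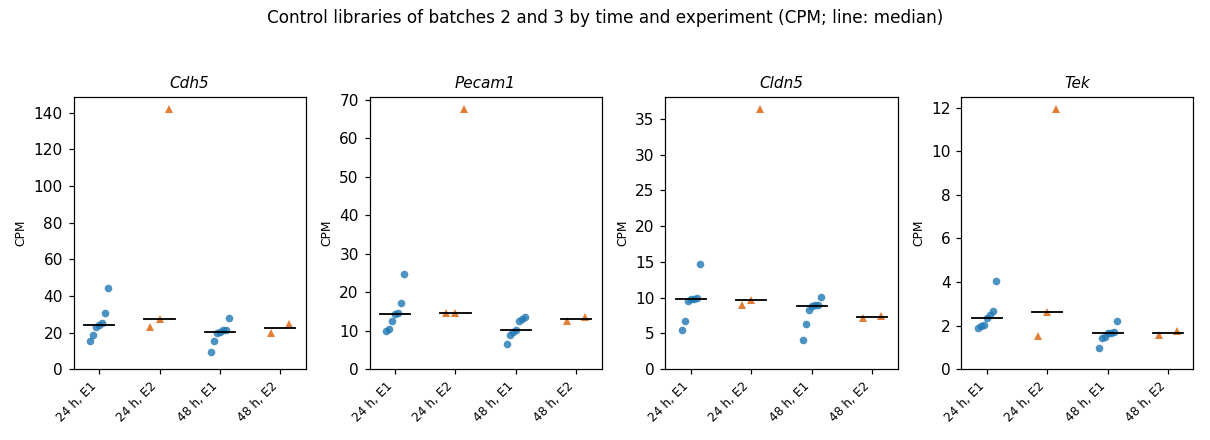
Cdh5, Pecam1, Cldn5 and Tek in the untreated libraries of batches 2 and 3, in CPM on linear axes from 0, by time and experiment, each point a library and each line a median. A single E2 library at 24 h, replicate 8, reads 142, 67.6, 36.4 and 11.9 CPM, far above every other control.

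Between 24 and 48 h in untreated slices Tek and Pecam1 were called lower with all libraries in the fit. Tek ranged from 1.54 to 11.9 CPM at 24 h (median 2.41) and from 0.988 to 2.20 at 48 h (median 1.66), a change of −0.96 ± 0.27 (edgeR adjusted p = 0.0243). Pecam1 ranged from 10.0 to 67.6 (median 14.7) and from 6.45 to 13.6 CPM (median 12.4), a change of −0.73 ± 0.22 (adjusted p = 0.0394). Cdh5 at −0.80 ± 0.27 (adjusted p = 0.0632) and Cldn5 at −0.55 ± 0.20 (adjusted p = 0.0923) did not pass. The 2 members called stand against 4.50% of genes.

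Both calls were lost without 1 library. Without control replicate 8 the changes were −0.59 for Tek (adjusted p = 0.186), −0.42 for Pecam1 (adjusted p = 0.265), −0.38 for Cdh5 and −0.27 for Cldn5. In batch 3 alone Tek lay on the other side of 0, at 0.17 ± 0.59. The Pecam1 call was also lost without 48 h control replicate 7 (adjusted p = 0.0642) or 9 (adjusted p = 0.0530). In E1 alone they were −0.66 ± 0.23 and −0.49 ± 0.20 (adjusted p = 0.136 and 0.204). Of the 20 other endothelial identity genes 6 were lower at 48 h with replicate 8 in the fit, among them Erg (−0.78 ± 0.24) and Ptprb (−0.73 ± 0.20). Without replicate 8 this count was 0, with Erg at −0.48 ± 0.22 and Ptprb at −0.45 ± 0.18. Of other cells, 2 of 8 microglial genes were higher and 4 of 6 oligodendrocyte genes lower, 1 and 3 without replicate 8, and their part was not tested. Of all 16473 genes, 273 were higher and 469 lower with replicate 8 in the fit, and without it 520 of 16465 were called. Slc2a1 was at 0.06 ± 0.08 and Mfsd2a at −0.11 ± 0.12.

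Experiments E1 and E2 differed widely, in 68.0% of genes, and 8 of the 9 members were among them. Pecam1 (0.48 ± 0.11), Kdr (0.43 ± 0.06), Cdh5 (0.40 ± 0.14), Tek (0.37 ± 0.14), Cldn5 (0.37 ± 0.10) and Abcb1a (0.37 ± 0.10) were higher in E2, while Flt1 (−0.32 ± 0.12) and Mfsd2a (−0.21 ± 0.06) were lower. Kdr had the smallest adjusted p, 6.24e-09. Slc2a1 was at −0.06 ± 0.04 (adjusted p = 0.168). Without the 3 libraries of E2 that stood apart, 4 of these calls were lost: Tek at 0.07 (adjusted p = 0.623), Cdh5 at 0.08 (adjusted p = 0.555), Cldn5 at 0.13 (adjusted p = 0.151) and Abcb1a at 0.19 (adjusted p = 0.0666). Pecam1 was at 0.23 (adjusted p = 0.0291), Kdr at 0.38, Flt1 at −0.58 and Mfsd2a at −0.19, all still called, and Slc2a1 joined them at −0.09 ± 0.04. Without control replicate 8 alone, Cdh5 (0.22, adjusted p = 0.107) and Tek (0.21, adjusted p = 0.150) were lost. Of all genes, the fit without the 3 libraries called 10756 of 16460, and the fit without replicate 8 alone called 11048 of 16465. Microglial genes were higher in E2 in 8 of 8 and pericyte genes in 8 of 10, beside which the Kdr and Pecam1 values stand. Their part was not tested.

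The change of each effect from 24 to 48 h was tested for the 200 µM doses. For Hb, 0 of 9 members were called against 0% of genes, with 0 at an unadjusted p under 0.05 and 0 by DESeq2. For HbHp, 0 of 9 were called against 0.0121%, with 4 at an unadjusted p under 0.05 and 0 by DESeq2. The HbHp estimates were 1.0 ± 0.33 for Pecam1 (adjusted p = 0.312), 0.93 ± 0.39 for Cdh5 and 0.89 ± 0.40 for Tek. Without control replicate 8 they were 0.68 ± 0.30, 0.51 ± 0.35 and 0.52 ± 0.36. For Slc2a1 the estimate was 0.11 ± 0.11, with an interval of −0.12 to 0.33.

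**Figure D5:**
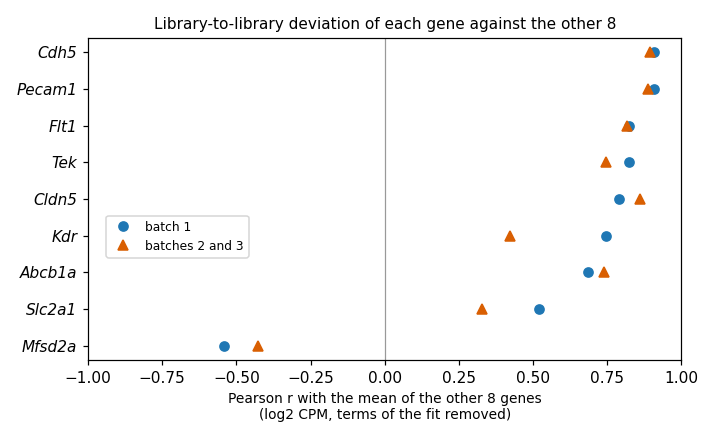
Pearson r between each gene's deviation from its fitted mean and the mean deviation of the other 8, over 60 libraries of batch 1 (circles) and all assigned libraries of batches 2 and 3 (triangles). Cdh5 and Pecam1 sit near 0.9 in both sets, and Mfsd2a is the one gene below 0.

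Within groups, most of the genes varied together from library to library. With group, batch and experiment means removed, the correlation of each gene with the mean of the other 8 was 0.91 for Cdh5 and for Pecam1 in batch 1 (60 libraries) and 0.90 and 0.89 over all assigned libraries of batches 2 and 3. Flt1 gave 0.82 in both sets, Cldn5 0.79 and 0.86, Tek 0.82 and 0.75, and Abcb1a 0.68 and 0.74. Kdr followed the others closely in batch 1 (0.75) and less so in batches 2 and 3 (0.42). Slc2a1 gave 0.52 and 0.33. These are descriptions over libraries that share depth and cell makeup.

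Mfsd2a went the other way, at −0.54 and −0.43. It correlated negatively with each of the 8 others in both sets, from −0.62 to −0.07 in batch 1 and from −0.51 to −0.20 in batches 2 and 3. With the mean of 20 other endothelial identity genes Mfsd2a gave −0.54 and −0.42, where Pecam1 gave 0.93 and 0.94 and Cdh5 0.92 and 0.94. With the mean of 8 astrocyte genes it gave 0.31 and 0.37. Its level ran opposite to the endothelial markers. Which cells carried its RNA was not measured.

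The 10 genes whose deviations in batch 1 were most like the mean of the members were Tie1, Cd34, Sox18, Esam, Notch4, Fn1, Loxl2, Cd93, Bcl6b and Heyl, at r = 0.90 to 0.94 over 60 libraries. In batches 2 and 3 the same measure was 0.92 for Tie1, the orphan partner receptor of Tek, 0.84 for Esam, an endothelial adhesion molecule, and 0.50 for Fn1, fibronectin.

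Other genes of the barrier and of vessel growth give the surroundings of the 9. The lists were chosen by function. At 400 µM heme-albumin, where 29% of all genes were called, 3 of 19 other barrier genes were higher and 5 lower, the amino acid transporters Slc7a1 (1.01 ± 0.08) and Slc7a5 (0.68 ± 0.07) among the former and Tfrc (−1.22 ± 0.16) and the zinc transporter Slc39a8 (−0.57 ± 0.11) among the latter. Of 11 VEGF and angiopoietin ligands and co-receptors 3 were lower, Angpt1, a ligand of Tek, by 0.46 ± 0.11 and Apln by 0.47 ± 0.16. Of 10 tip cell and angiogenesis genes 3 were higher and 2 lower, with Esm1 at 1.38 ± 0.36. Without replicate 6 of the 400 µM group the VEGF and angiopoietin list had 2 lower, while the counts of the barrier, tip cell and Wnt lists stayed as they were. Of 12 genes of endothelial Wnt signalling 2 were lower, Apcdd1 by 0.82 ± 0.07 and Reck by 0.49 ± 0.07. The median over all genes tested was −0.01 in this comparison, against 0.06 over the 9 members.

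At 48 h, HbHp at 200 and 400 µM and Hp at 400 µM, which share the 9 untreated libraries, called 11.9%, 11.9% and 10.8% of all genes, and among the lists the following. Esam was at 0.84 ± 0.23, 0.92 ± 0.25 and 0.82 ± 0.21, and Foxq1, a transcription factor of brain endothelium, at 0.78 ± 0.26, 1.13 ± 0.28 and 0.90 ± 0.23. Plvap, which marks fenestrated and leaky endothelium, was at −0.63 ± 0.17, −0.72 ± 0.19 and −0.45 ± 0.15. Wnt7b, a ligand that sustains the barrier, was at −1.02 ± 0.25, −1.06 ± 0.28 and −1.02 ± 0.22. Of 20 endothelial identity genes these comparisons called 1, 2 and 1, of 19 barrier genes 1, 1 and 4, and of 12 Wnt genes 2, 2 and 3, beside the shares of all genes just given. The smooth muscle gene Acta2 was at −0.80 ± 0.25, −1.14 ± 0.28 and −1.16 ± 0.23, beside which the vascular values at 48 h stand. Within E2 alone, which holds all HbHp libraries, Foxq1 with HbHp 400 µM (1.33 ± 0.39) was the only call among these 5 genes. For HbHp 200 and 400 µM that fit called 646 and 766 of 16429 genes in all. Within batch 3 alone none of the 5 was called, beside 359 and 602 of 16515 genes. For Hp 400 µM all 5 were called in E1 alone and none in E2 alone, beside 2596 and 5 of 16429 genes. In E2 alone Plvap was at 0.22 ± 0.17 and Wnt7b at −0.29 ± 0.23 with Hp 400 µM.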

How the data were processed

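The authors deposited 1 table of raw counts per library, whole reads per Ensembl gene that are not normalised. The submitters' processing notes name featureCounts and GRCm39; the aligner and strand setting are not given in the sources used here. Counts were tested with edgeR 4.0.16 (quasi-likelihood, TMM scaling, filterByExpr with a minimum count of 10) in R 4.3.3, with Benjamini-Hochberg adjustment over all genes tested and calls at an adjusted p under 0.05. Batch 1 (60 libraries, 15554 genes tested) was fitted by group, and batches 2 and 3 (107 libraries, 16473 genes) by group, batch and experiment, so levels were never compared between the fits. The authors' DESeq2 approach (version 1.42.0) was run as an alternative, beside other filters, a GC and length correction, single batches or experiments, and leaving out libraries. The tests were checked on simulated counts. Intervals are 95% (1.96 SE). Symbols and lengths came from GENCODE M21 on GRCm38. The 9 genes and the 16 marker lists were chosen with earlier results of these data known. Genes were named from the lists by a rule: at most 4 called genes per list and comparison with a mean of at least 1 CPM, by size of change. The 10 genes most like the members were ranked by r in batch 1.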

Additional observations from a re-analysis of the deposited data

Results flagged for a closer look

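In groups of 4 to 10 libraries, 19 of 144 tests of a single extreme library passed Dixon's 95% limit, where chance gives about 1 in 20. Control replicate 8 at 24 h gave 5 of them as the highest of its group, with 142 CPM for Cdh5, 67.6 for Pecam1, 36.4 for Cldn5, 33.2 for Abcb1a and 11.9 for Tek. Without it the calls on Tek and Pecam1 between 24 and 48 h were lost.

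In batch 1, heme-albumin 400 µM replicate 6 was the highest of its group for Cdh5 (110.05 CPM), Flt1 (34.6 CPM) and Kdr (24.0 CPM). Heme-albumin 12.5 µM replicate 8 was highest for Cdh5 (64.5 CPM) and Pecam1 (30.4 CPM), and heme-albumin 50 µM replicate 5 for Flt1 (32.3 CPM) and Pecam1 (35.5 CPM). Control replicate 19 was highest for Tek at 6.06 CPM, and hemeHpx replicate 7 for Slc2a1 at 158 CPM.

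In batches 2 and 3, Hb 400 µM replicate 8 at 24 h was highest for Abcb1a (17.4 CPM) and Cldn5 (12.2 CPM), and Hb 400 µM replicate 3 at 48 h for Tek (4.65 CPM). HbHp 400 µM replicate 3 at 48 h was highest for Slc2a1 at 141 CPM. HbHp 200 µM replicate 8 at 48 h was the lowest of its group for Pecam1, at 8.66 CPM with the nearest library at 16 CPM.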

How the results depend on the processing

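Of 299 counts of called members under an alternative, 250 stayed within 1.5 times the reported count, and of 249 called values 213 kept their direction and call. The cause of the other changes was not tested. Most of the 25 comparisons had a reported count of 0, and a 0 that stayed 0 is among the 250. For heme-albumin 200 µM the count of 2 became 1 without a filter on low counts, with at least 10 counts in every library and with the replicate block, and 0 over the 30 libraries of 3 groups; without replicate 9 it stayed at 2, Flt1 in place of Slc2a1. For hemeHpx against control it rose from 0 to 1 with the block. Against heme-albumin it went from 2 to 1 without a filter and after GC and length correction. For Hb 400 µM at 24 h the 1 call became 0 without a filter, with the block, with a batch term only, in E1 alone, in E2 alone, and without the 3 libraries of E2 that stood apart. Over all genes E1 alone called 41 and E2 alone 30 of 16429, against 86 of 16473 in the main fit. Leaving out single libraries gave 0 (control replicates 8 and 11) to 1. For HbHp 200 µM at 24 h, 0 became 1 with the strict filter, in batch 3 alone, without the 3 libraries and by DESeq2, and single libraries gave 0 to 1 (control replicates 7 and 8). For HbHp 400 µM at 24 h, 1 became 2 with a batch term only and in batch 3 alone, and single libraries gave 1 to 2 (HbHp replicate 4). Against Hp 400 µM at 24 h, single libraries gave 0 (HbHp replicate 1) to 1. At 48 h, HbHp 200 µM went from 1 to 2 with a batch term only. HbHp 400 µM went from 1 to 2 with the block, in batch 3 alone and without the 3 libraries, to 3 with a batch term only, and single libraries gave 1 to 2 (HbHp replicate 3). Hp 400 µM went from 0 to 1 with the block, after GC correction and in E1 alone. HbHp against Hb at 200 µM went from 0 to 1 with the block and after GC correction. HbHp against Hp at 400 µM went from 0 to 1 with the strict filter, after GC correction, in E2 alone and by DESeq2, and to 2 in batch 3 alone. For control 48 h against 24 h, 2 became 0 in E1, E2 or batch 3 alone and without the 3 libraries. These fits called 202 of 16429, 144 of 16429, 0 of 16515 and 537 of 16460 genes in all, against 742 of 16473. Single libraries gave 0 (control replicate 8 at 24 h) to 2, with 1 for control replicates 7 and 9 at 48 h. Tek reversed to 0.17 in batch 3 alone. E2 against E1 went from 8 to 5 without the 3 libraries, a fit that called 10756 of 16460 genes in all, against 11199 of 16473.

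The code in the library names was tried as a replicate block, since it recurs across groups. Libraries sharing a code had a median correlation of deviations of 0.19 in batch 1 (169 pairs, 55.6% over 0.1) and 0.06 in batches 2 and 3 (291 pairs, 42.6% over 0.1), against −0.01 in batch 1 for libraries of other codes. Not every pair exceeded 0.1, and what the code marks is not stated, so the main fits left the code out. Any spread shared by a code therefore stays in their error. With the block Kdr at heme-albumin 200 µM was at −0.43 (adjusted p = 0.0515). Over all genes the block moved the calls for hemeHpx against control from 1276 to 3706 and for control 48 h against 24 h from 742 to 142. For heme-albumin it moved them from 2113 to 2702 at 200 µM and from 4510 to 5265 at 400 µM. The main counts of batch 1 thus depend on leaving the code out.

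Depth limits Tek most. Groups and experiments are unevenly crossed, so for HbHp, all of E2 and batch 3, the contrast with control leans on the few E2 controls and on additive terms. The contrast of HbHp with Hb leans on the same terms. The fits in E1 alone, without the 3 libraries, without heme-albumin 400 µM replicate 6 or 200 µM replicate 9 and, for 24 h controls against E1 or time, without control replicate 8 were chosen after seeing the data.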

Other observations

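The 21 libraries left out of the comparisons had levels as follows. In 20 libraries tagged HbHpx_400uM, whose titles name another complex, Slc2a1 ranged from 79.2 to 141 CPM (median 104), Mfsd2a from 16.1 to 41.9 CPM (median 25.2) and Kdr from 10.6 to 19 CPM (median 13.5). Cdh5 ranged there from 22.8 to 68.8 CPM (median 34), Pecam1 from 8.86 to 23.1 CPM (median 15.3) and Cldn5 from 6.70 to 15.7 CPM (median 8.56). The control library with an open time read 90.6 CPM for Slc2a1, 32.5 CPM for Mfsd2a, 18 CPM for Kdr and 28.1 CPM for Cdh5.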
